A study of Mus musculus with 6 samples.

Results

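The genes of the circadian clock were followed in mouse gonadal white adipose tissue (gWAT), the fat that surrounds the reproductive organs. They were taken as the rows of the deposited read-count table whose NCBI gene identifier belongs to *Arntl* (also called *Bmal1*), *Clock*, *Per1*, *Per2*, *Per3*, *Cry1*, *Cry2*, *Nr1d1*, *Nr1d2* or *Dbp*. All 10 were found among the 19790 genes of the table, and all 10 passed the filter on low counts. RNA-seq libraries came from 6 male wild-type C57BL/6 samples, 3 on a normal chow diet (NCD) and 3 on a high-fat diet (HFD), each for 8 weeks. All were housed with alternating light and dark and ate ad libitum. The labels call the genotype wild-type, a name that the study's methods also give to mice with floxed *Tmem86a* alleles and no Cre, and whether these mice carried the floxed alleles was not stated. The labels give an age of 6 weeks at the start of the diets. The labels number the replicates without stating that each is a separate mouse. They are called mice here, and the p-values measure the spread between these samples. The tissue is whole fat, so adipocytes, macrophages, vessels and stroma are read together. The hour of tissue collection was not given in the sources used here. A lower level of a clock transcript and a shifted daily rhythm therefore cannot be told apart in these libraries.

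The mammalian clock is a feedback loop of transcription that runs in nearly every cell. BMAL1 (the protein of *Arntl*) and CLOCK pair and bind E-box sequences, from which they drive the *Per* and *Cry* genes, the REV-ERB genes *Nr1d1* and *Nr1d2*, and the output gene *Dbp*. PER and CRY proteins then block the BMAL1 and CLOCK pair, and the REV-ERB receptors silence *Arntl* through elements that they share with the activating ROR receptors. In fat, as in liver, the transcripts of *Dbp* and *Arntl* peak at opposite times of day.

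Promoter windows, from 250 bases before to 50 bases after a start site, were found in the RefSeq table of assembly GRCm38.p6 for 9 of the 10 genes, in 13 windows. The letters searched on both strands were the E-box CACGTG, the E-prime box CACGTT, the D-box TTATGTAA or TTACGTAA, the REV-ERB and ROR core TAGGTCA or TGGGTCA, and the cyclic AMP element TGACGTCA. The E-prime and D-box words were also read as their reverse complements. Shown are windows with a match from 3 genes that fell in HFD-fed mice (*Per1*, *Per3* and *Cry2*, the last 2 without 1 NCD library described below). The window of *Arntl*, the target of the REV-ERB receptors, is shown as well. Capitals mark the motif that each shown window holds, and every window is written 5′ to 3′ on the strand of its gene. The windows of *Per1* and *Arntl* that are not shown held no match. *Nr1d2* and *Dbp* also fell without that NCD library, and their windows held no match. The E-box of *Per1* begins at position -166 from the start site in chr11:69098699-69098998 (plus strand), and the D-boxes of *Per3* at -205 and -158 in chr4:151044616-151044915 (minus strand). The E-prime box of *Cry2* begins at -166 in chr2:92434020-92434319 (minus strand), and the core of *Arntl* at base 31 after the start site in chr7:113207261-113207560 (plus strand).
Per1: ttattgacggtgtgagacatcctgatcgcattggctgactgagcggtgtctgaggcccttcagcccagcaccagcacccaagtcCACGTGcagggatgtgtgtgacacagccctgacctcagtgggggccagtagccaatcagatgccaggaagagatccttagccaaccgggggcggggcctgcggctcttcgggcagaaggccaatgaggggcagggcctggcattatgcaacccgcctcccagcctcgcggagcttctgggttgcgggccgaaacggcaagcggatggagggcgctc
Per3: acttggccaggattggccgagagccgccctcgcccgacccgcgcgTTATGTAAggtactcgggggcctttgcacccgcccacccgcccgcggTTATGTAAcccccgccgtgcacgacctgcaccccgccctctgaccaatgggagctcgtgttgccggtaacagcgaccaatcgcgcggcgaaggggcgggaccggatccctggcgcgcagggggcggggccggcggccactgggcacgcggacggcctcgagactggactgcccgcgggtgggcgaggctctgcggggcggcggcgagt
Cry2: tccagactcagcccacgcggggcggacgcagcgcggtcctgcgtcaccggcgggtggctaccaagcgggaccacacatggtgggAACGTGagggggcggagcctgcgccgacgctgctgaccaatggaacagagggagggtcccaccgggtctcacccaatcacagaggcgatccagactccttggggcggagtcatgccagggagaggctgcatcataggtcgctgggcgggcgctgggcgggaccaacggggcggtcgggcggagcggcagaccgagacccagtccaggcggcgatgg
Arntl: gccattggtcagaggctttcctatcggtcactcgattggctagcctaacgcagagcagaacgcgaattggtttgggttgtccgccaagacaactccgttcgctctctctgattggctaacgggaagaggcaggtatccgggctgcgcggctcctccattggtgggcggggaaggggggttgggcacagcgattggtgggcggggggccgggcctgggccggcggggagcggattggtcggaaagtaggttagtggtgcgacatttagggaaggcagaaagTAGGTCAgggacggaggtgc

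The other matches were an E-box at -60 and an E-prime box at -79 of *Cry1* (chr10:85185005-85185304, minus strand) and an E-prime box at -28 of *Nr1d1* (chr11:98775328-98775627, minus strand). No window of *Clock*, *Nr1d2* or *Dbp* held any of these words, and no window of the 9 genes held the cyclic AMP element. Among all 32851 promoters of the same length, 7.15% held the E-box, 4.68% the E-prime box, 1.06% a D-box, 6.45% a REV-ERB and ROR core and 1.79% the cyclic AMP element. A match describes the letters of the window and not a bound site.

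The libraries held between 49575113 and 66360046 counts each, so that the spread between mice and not counting error limited the precision for these genes. One NCD library stood apart. Seminal vesicle secretory genes took 58.6% of the counts of NCD replicate 1, 11.2% of NCD replicate 2 and 2.30% of NCD replicate 3, against at most 1.21e-05% in any HFD library. Counts were therefore scaled by TMM (trimmed mean of M values, which estimates a library's scale from the bulk of its genes), and the factor of NCD replicate 1 was 0.496 where those of the other libraries ran from 1.02 to 1.27. Every comparison is given with all 6 mice and again without NCD replicate 1, and the 5 remaining mice still differ in seminal vesicle RNA by diet.

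Some genes of the repressor and output arm of the clock fell in gWAT of HFD-fed mice, 1 with all 6 mice and 5 without NCD replicate 1. *Per2*, *Cry1* and *Nr1d1* of that arm did not pass the test in either comparison, and neither did the activators *Arntl* and *Clock*. The difference between the arms was not tested. With all 6 mice, *Per1* fell past the threshold (adjusted p of edgeR's quasi-likelihood test under 0.05 over all genes), 1 of 10 genes, where 1.9% of all 15241 genes tested fell and 5.58% rose. Without NCD replicate 1, *Per1*, *Per3*, *Cry2*, *Nr1d2* and *Dbp* fell, 5 of 10 genes, where 10.1% of all 15510 genes tested fell and 10.7% rose. Of the 3234 genes called in the 5 mice 1665 rose, and on total counts alone 2544 of 3498 did. None of the 10 clock genes rose in either comparison. The fitted value was below 0 for 9 of the 10 genes in both comparisons, and for 6 (all 6 mice) and 8 (5 mice) of the 10 when libraries were scaled by total counts alone, a scaling that placed the median log2 fold change of all genes at 0.45 and 0.23 instead of -0.08 and 0.02. The median log2 fold change of the 10 genes was -0.61 with all 6 mice and -0.69 without NCD replicate 1.

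Counted without a test, every HFD mouse lay below every NCD mouse for 4 of the 10 genes (*Per1*, *Per3*, *Cry2* and *Nr1d2*), which held for 18.7% of all genes. Leaving out NCD replicate 1, this was so for 7 of the 10, with *Per2*, *Nr1d1* and *Dbp* added, against 28.1% of all genes. In bulk tissue, fewer cells that express a gene and less of its RNA per cell cannot be told apart. The plot of each mouse's values shows which of these separations are wide.

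**Figure D1:**
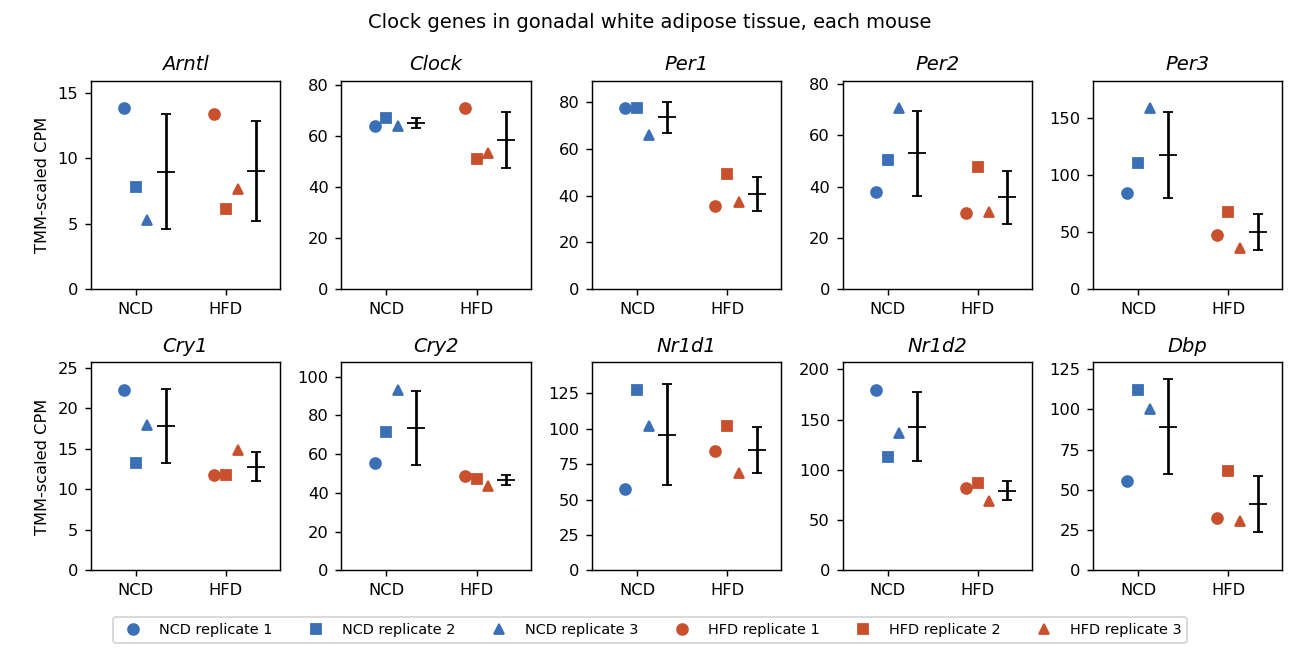
Read counts relative to the TMM-scaled library size (TMM-scaled CPM, vertical axes from 0) of the 10 clock genes in each of the 3 NCD mice (blue) and 3 HFD mice (orange), with the mean and SD of each diet as a black bar. The diets do not overlap for *Per1*, *Per3*, *Cry2* and *Nr1d2*, and NCD replicate 1 is the lowest NCD mouse for *Per2*, *Per3*, *Cry2*, *Nr1d1* and *Dbp*.

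*Arntl* (NCBI gene 11865, chr7:113178471-113314126), which encodes the BMAL1 subunit of the activator, stood at 13.8, 7.83 and 5.28 TMM-scaled CPM on NCD and at 13.4, 6.10 and 7.64 on HFD, here and below in the order of the replicate numbers. One mouse of each diet was high and the other two were low, so the diets overlapped. The means were 8.98 ± 4.38 (SD, n = 3) and 9.04 ± 3.84 (SD, n = 3), with a log2 fold change of 0.01 ± 0.458 (SE), an interval from -1.10 to 1.12 and an adjusted p of 0.990. In the 5 mice the value was 0.48 ± 0.387 (SE), with an interval from -0.48 to 1.43 and an adjusted p of 0.417. Intervals are 95% intervals throughout. The sign of the fitted value turned negative without NCD replicate 2 (-0.08), NCD replicate 3 (-0.24) or HFD replicate 1 (-0.37).

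*Clock* (NCBI gene 12753, chr5:76209868-76305603) encodes the partner of BMAL1 and was the member with the closest NCD values, at 64.0, 67.1 and 63.9 TMM-scaled CPM, against 70.8, 50.9 and 53.2 on HFD. HFD replicate 1 was the highest of all 6 mice and the other HFD mice were the lowest. The means were 65.0 ± 1.80 and 58.3 ± 10.9 (SD, n = 3 each), and the log2 fold change was -0.16 ± 0.168 (SE, interval -0.56 to 0.25, adjusted p = 0.560). It was -0.15 without NCD replicate 1, with an adjusted p of 0.545.

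The period genes encode the PER subunits of the repressor complex, of which *Per1* and *Per2* also respond to acute signals. *Per1* (NCBI gene 18626, chr11:69095108-69109965), the gene with the E-box printed above, stood at 77.4, 77.5 and 65.9 TMM-scaled CPM on NCD and at 35.5, 49.3 and 37.4 on HFD. All HFD mice were below all NCD mice, with a gap between the diets that was wider than the range within either. The means were 73.6 ± 6.69 and 40.7 ± 7.47 (SD, n = 3 each), a log2 fold change of -0.85 ± 0.178 (SE) with an adjusted p of 0.0445, and -0.80 ± 0.177 with an adjusted p of 0.0304 without NCD replicate 1. The adjusted p lay close to the threshold. It ran from 0.0806 to 0.169 when any other mouse than NCD replicate 1 was left out of the 6 (NCD replicates 2 and 3 and all 3 HFD mice), while the fold change stayed between -0.996 and -0.75. It was 0.609 on total counts alone. The call in the 5 mice was lost without NCD replicate 2, NCD replicate 3 or HFD replicate 3 (adjusted p = 0.159, 0.115 and 0.0788).

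*Per2* (NCBI gene 18627, chr1:91415977-91459351) stood at 37.9, 50.2 and 70.6 TMM-scaled CPM on NCD and at 29.6, 47.5 and 30.1 on HFD. HFD replicate 2 lay between the NCD mice, and the other HFD mice were below all of them. The log2 fold change was -0.57 ± 0.301 (SE, adjusted p = 0.261) and, without NCD replicate 1, -0.74 ± 0.266 (SE, interval -1.40 to -0.08, adjusted p = 0.101).

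*Per3* (NCBI gene 18628, chr4:150997018-151044707), whose promoter holds the pair of D-boxes, showed the largest fold change of the 10 genes. It stood at 84.0, 110.4 and 158.6 TMM-scaled CPM on NCD and at 47.3, 67.2 and 36.2 on HFD. The highest HFD mouse was below the lowest NCD mouse, though the NCD mice themselves were spread widely. The means were 117.7 ± 37.8 and 50.2 ± 15.7 (SD, n = 3 each), and the log2 fold change was -1.23 ± 0.326 (SE, adjusted p = 0.0718). In the 5 mice it was -1.41 ± 0.292 (SE, adjusted p = 0.0264), so that *Per3* stood at 37.7% of its NCD level. That call was lost when NCD replicate 2, NCD replicate 3 or HFD replicate 3 was left out as well (adjusted p = 0.0737, 0.158 and 0.0532).

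The cryptochromes are the other subunits of the repressor complex. *Cry1* (NCBI gene 12952, chr10:85131700-85185054) stood at 22.3, 13.2 and 17.9 TMM-scaled CPM on NCD and at 11.8, 11.7 and 14.9 on HFD. HFD replicate 3 was above NCD replicate 2, so the diets overlapped. The log2 fold change was -0.48 ± 0.242 (SE, interval -1.07 to 0.11, adjusted p = 0.242), and -0.27 (adjusted p = 0.389) without NCD replicate 1.

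*Cry2* (NCBI gene 12953, chr2:92403646-92434085) had the tightest HFD group of the 10 genes, at 48.5, 47.3 and 43.6 TMM-scaled CPM, below its NCD values of 55.3, 71.3 and 93.4. The diets did not overlap, and NCD replicate 1 was the mouse nearest to the HFD group. The means were 73.3 ± 19.1 and 46.5 ± 2.55 (SD, n = 3 each), with a log2 fold change of -0.66 ± 0.213 (SE, adjusted p = 0.106). Without NCD replicate 1 it was -0.81 ± 0.147 (SE, adjusted p = 0.0186), the lowest adjusted p of the 10 genes. This call was lost without NCD replicate 3, HFD replicate 2 or HFD replicate 3 (adjusted p = 0.106, 0.0600 and 0.0530). Exons of *Cry2* share 149 bases with the antisense gene *D930015M05Rik*.

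The REV-ERB genes encode nuclear receptors that repress *Arntl*. *Nr1d1* (NCBI gene 217166, chr11:98767932-98775377) stood at 57.6, 127.6 and 102.3 TMM-scaled CPM on NCD and at 84.6, 101.7 and 68.6 on HFD. NCD replicate 1 was the lowest mouse of all 6, and the other NCD mice were the highest. The log2 fold change was -0.17 ± 0.320 (SE, interval -0.95 to 0.60, adjusted p = 0.741) and, without NCD replicate 1, -0.42 ± 0.197 (SE, interval -0.91 to 0.07, adjusted p = 0.178). Exons of *Nr1d1* share 263 bases with *Thra* on the opposite strand, and the strand setting of the counting was not given in the sources used here, so reads of this stretch may not be told apart. *Thra*, the thyroid hormone receptor alpha gene, had a log2 fold change of -0.73 (adjusted p = 0.0337) without NCD replicate 1.

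*Nr1d2* (NCBI gene 353187, chr14:18204056-18239106), the second REV-ERB gene, stood at 180.0, 112.7 and 136.6 TMM-scaled CPM on NCD and at 82.3, 86.8 and 68.8 on HFD. The diets did not overlap, and in contrast to *Nr1d1* NCD replicate 1 was here the highest mouse. The means were 143.1 ± 34.1 and 79.3 ± 9.38 (SD, n = 3 each), with a log2 fold change of -0.85 ± 0.219 (SE, adjusted p = 0.0672). In the 5 mice left without NCD replicate 1 it was -0.64 ± 0.154 (SE, adjusted p = 0.0387), or 64.2% of the NCD level. That call was lost when a further mouse other than HFD replicate 1 was left out, with adjusted p of 0.0921 (NCD replicate 2), 0.216 (NCD replicate 3), 0.0764 (HFD replicate 2) and 0.0807 (HFD replicate 3). The fitted values of both REV-ERB genes were below 0 in the 5 mice, and the difference between the genes was not tested.

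*Dbp* (NCBI gene 13170, chr7:45705100-45710203) encodes a D-box activator and is the output gene most directly driven by BMAL1 and CLOCK. It stood at 55.8, 112.3 and 99.9 TMM-scaled CPM on NCD and at 32.3, 61.5 and 30.7 on HFD. HFD replicate 2 exceeded NCD replicate 1, and the other NCD mice were above every HFD mouse. The means were 89.3 ± 29.7 and 41.5 ± 17.3 (SD, n = 3 each), with a log2 fold change of -1.11 ± 0.383 (SE, adjusted p = 0.122). Without NCD replicate 1 it was -1.34 ± 0.322 (SE, adjusted p = 0.0383), or 39.5% of the NCD level, and the call was lost without NCD replicate 2, NCD replicate 3, HFD replicate 1 or HFD replicate 3 (adjusted p = 0.163, 0.153, 0.0590 and 0.0855). Exons of *Dbp* share 539 bases with *Sphk2* on the opposite strand, and *Sphk2*, a sphingosine kinase gene, had log2 fold changes of -0.02 with all 6 mice and 0.31 (adjusted p = 0.118) without NCD replicate 1.

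**Figure D2:**
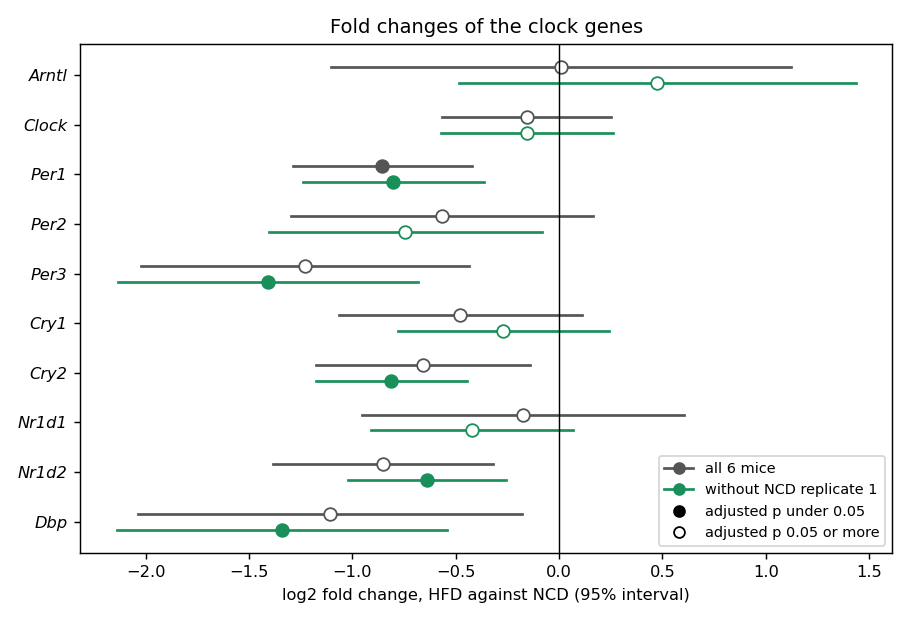
Log2 fold change of each clock gene, HFD against NCD, with its 95% interval, for all 6 mice (grey) and for 5 mice without NCD replicate 1 (green); filled points passed an adjusted p of 0.05. Only *Per1* is filled with all 6 mice, and *Per1*, *Per3*, *Cry2*, *Nr1d2* and *Dbp* are filled with 5.

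The mice of a diet did not rank alike for all clock genes. HFD replicate 2 was the highest HFD mouse for 6 of the 10 genes (*Per1*, *Per2*, *Per3*, *Nr1d1*, *Nr1d2* and *Dbp*) and the lowest for *Arntl*, *Clock* and *Cry1*. HFD replicate 1 was the highest for *Arntl*, *Clock* and *Cry2*. Among the NCD mice, NCD replicate 1 was the highest for 3 genes (*Arntl*, *Cry1* and *Nr1d2*) and the lowest for 5, which were *Per2*, *Per3*, *Cry2*, *Nr1d1* and *Dbp*. Within HFD, the SD of the log2 CPM was 0.584 for *Arntl* and 0.559 for *Dbp*, the widest of the 10 genes, and 0.0803 for *Cry2*, the narrowest. The median SD of the 10 genes was 0.271, against 0.218 over the 14990 genes with counts in every HFD mouse, and 7 of the 10 genes were above that value.

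Ratios of 2 genes within a library do not depend on how libraries are scaled, and *Arntl* was set against 3 genes of the opposite arm. The log2 ratio of *Arntl* to *Dbp* was -2.01, -3.84 and -4.24 in the NCD mice and -1.27, -3.33 and -2.01 in the HFD mice. There were thus 4.03, 14.3 and 18.9 counts of *Dbp* for each count of *Arntl* on NCD and 2.41, 10.1 and 4.02 on HFD. The means were -3.37 ± 1.19 and -2.20 ± 1.05 (SD, n = 3 each), and the difference of 1.16 gave an exact permutation p of 0.2 (two-sided, 0.3 adjusted over the 3 ratios). The ratio overlapped between the diets through NCD replicate 1. Without that mouse the difference was 1.84 and the diets did not overlap, and the exact permutation p was again 0.2.

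The log2 ratio of *Arntl* to *Per3* stood at -2.60, -3.82 and -4.91 on NCD and -1.82, -3.46 and -2.25 on HFD. Its difference was 1.27 (exact permutation p = 0.2, adjusted 0.3). Without NCD replicate 1 it was 1.85 (exact permutation p = 0.2), and the diets did not overlap. The log2 ratio of *Arntl* to *Nr1d1* was -2.06, -4.03 and -4.27 on NCD and -2.66, -4.06 and -3.17 on HFD. Here the diets overlapped with and without NCD replicate 1, and the difference was 0.16 (exact permutation p = 0.9, adjusted 0.9) and 0.86. Tests of 3 mice against 3 cannot give a p below 0.1.

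**Figure D3:**
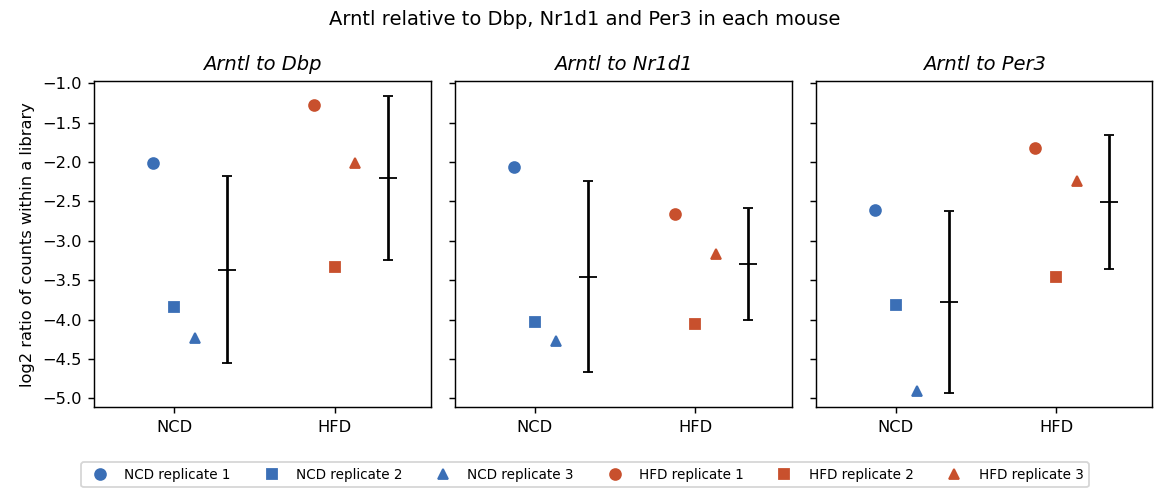
Log2 ratio of the counts of *Arntl* to those of *Dbp*, *Nr1d1* and *Per3* within each library, for 3 NCD mice (blue) and 3 HFD mice (orange), with the mean and SD of each diet in black. NCD replicate 1 lies above the other NCD mice in all 3 panels, by the widest margin against *Nr1d1* (-2.06, where the others are at -4.03 and -4.27).

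Levels of different genes were compared per exon length, as FPKM (counts of a gene relative to its exon length and to all counts of the library). FPKM of NCD replicate 1 are lowered by the seminal vesicle counts in its total, so the order of genes within a mouse is the quantity to read. *Dbp* and the REV-ERB genes were the 3 most abundant clock transcripts in every mouse, and *Arntl* was the least abundant in every mouse but HFD replicate 1, where *Cry1* was. *Dbp* stood at 15.03, 62.4 and 58.3 FPKM in the NCD mice and at 20.3, 42.1 and 21.1 in the HFD mice. *Arntl* stood at 2.22, 2.59 and 1.83 FPKM on NCD and at 5.01, 2.48 and 3.13 on HFD.

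By mean FPKM the NCD order was *Dbp*, *Nr1d1*, *Nr1d2*, *Per3*, *Cry2*, *Per1*, *Per2*, *Clock*, *Cry1* and *Arntl*. Of its 9 steps, 5 held in all 3 mice, and the steps from *Nr1d1* to *Nr1d2*, *Cry2* to *Per1*, *Per1* to *Per2* and *Clock* to *Cry1* held in 2 of 3. On HFD, *Nr1d1* came before *Dbp* in all 3 mice, at 35.9, 47.0 and 31.9 FPKM, while *Dbp* came before *Nr1d1* in all 3 NCD mice. *Cry2* also came before *Per3* in 2 of 3 HFD mice, where *Per3* came first in all 3 NCD mice, and *Clock* came before *Per2* in 2 of 3 HFD mice.

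**Figure D4:**
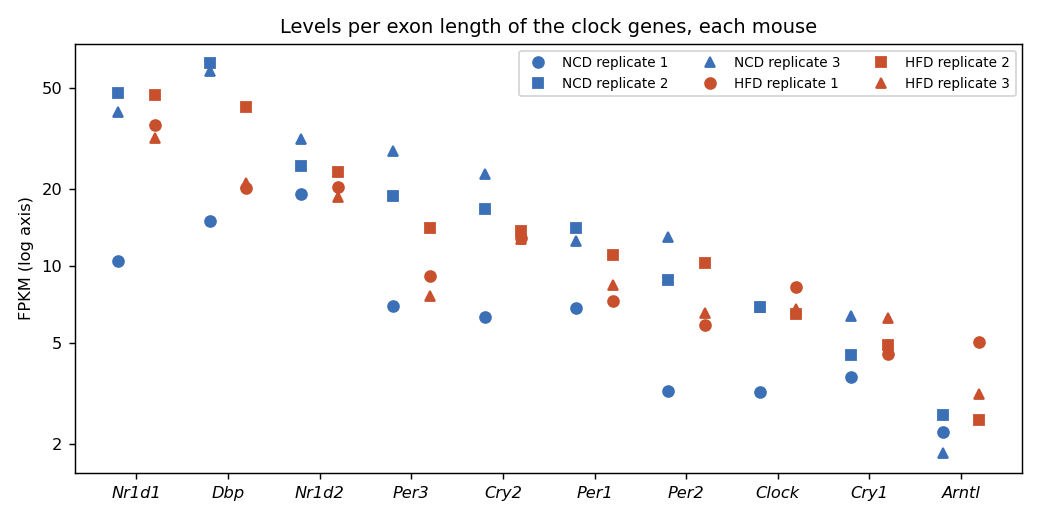
Level of each clock gene per exon length (FPKM, log axis) in the 3 NCD mice (blue) and 3 HFD mice (orange), ordered by mean rank over the diets. *Dbp* lies above *Nr1d1* in every NCD mouse and below it in every HFD mouse, and *Arntl*, at 1.83 to 5.01 FPKM, is the lowest gene in 5 of the 6 mice.

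The other genes of the clock were read from a list of 39, all of which were tested. With all 6 mice 5 of them fell (*Rora*, *Tef*, *Nampt*, *Klf15* and *Usp2*), against the 1.9% of all genes given above. In the 5 mice 8 fell and 3 rose, against 10.1% and 10.7% of all genes. *Rorb*, with 0 counts in every HFD mouse, is among the 8. The 28 that did not pass had log2 fold changes from -1.95 to 1.11, and the median of the 39 was -0.29 with 6 mice and -0.23 with 5.

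The ROR receptors activate *Arntl* at the element where the REV-ERB receptors repress it. *Rora*, which encodes one of them, stood at 41.0, 41.3 and 48.2 TMM-scaled CPM on NCD and at 25.6, 24.7 and 19.7 on HFD, without overlap (log2 fold change -0.90, adjusted p = 0.0327, and -0.93, adjusted p = 0.0152, without NCD replicate 1).

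*Rorb*, which also encodes an ROR receptor, stood at 14.5, 1.27 and 0.242 TMM-scaled CPM on NCD, in the order of the seminal vesicle shares, and had 0 counts in every HFD mouse. Against a floor of 3 counts per library, the HFD level was at least 118-fold below the mean of the NCD mice. It was at least 16.7-fold below the mean of NCD replicates 2 and 3. These bounds are for means and do not hold for NCD replicate 3, which had 13 counts. *Rorb* did not pass with all 6 mice (adjusted p = 0.0933) and fell without NCD replicate 1 (adjusted p = 0.0394). It passed the filter on low counts through the NCD libraries alone, so this test gives no separate support for a fall. The part of seminal vesicle RNA in this result was not tested.

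Among the 7 modulators that act at E-boxes and D-boxes, 2 fell in the 5 mice. *Tef*, which encodes a D-box activator related to DBP, stood at 187.7, 235.5 and 284.9 TMM-scaled CPM on NCD and at 98.4, 132.4 and 88.7 on HFD, without overlap. Its log2 fold change was -1.15 ± 0.244 (SE, adjusted p = 0.0464) with all 6 mice and -1.28 ± 0.208 (SE, adjusted p = 0.0146) without NCD replicate 1. *Bhlhe41*, which encodes a repressor that competes for E-boxes, stood at 18.1, 21.7 and 30.8 on NCD and at 16.4, 14.5 and 10.5 on HFD. It passed without NCD replicate 1 (-0.91, adjusted p = 0.0494) and not with all 6 mice (-0.77, adjusted p = 0.126).

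None of the 8 kinases and ubiquitin ligases that set the stability of PER and CRY proteins passed in either comparison. Of the 10 cofactors, *Timeless*, a replication fork gene named after the fly clock gene, was the 1 that passed in the 5 mice, and it rose. It stood at 4.48, 11.3 and 10.1 TMM-scaled CPM on NCD and at 16.7, 23.8 and 28.3 on HFD (1.12, adjusted p = 0.0329, in the 5 mice). With all 6 mice it did not pass (1.41, adjusted p = 0.0803).

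Of the 9 further output genes, 3 fell and 2 rose in the 5 mice. *Usp2*, which encodes a ubiquitin-specific protease, stood at 37.0, 29.9 and 35.6 TMM-scaled CPM on NCD and at 4.47, 6.96 and 5.72 on HFD. Its log2 fold change was larger in size than that of any of the 10 core genes, at -2.58 ± 0.222 (SE, adjusted p = 0.0192), and -2.50 (adjusted p = 0.00560) without NCD replicate 1. *Nampt*, the rate-limiting enzyme of NAD salvage, stood at 197.9, 199.2 and 233.7 on NCD and at 108.6, 113.5 and 119.2 on HFD (-0.89, adjusted p = 0.0301, and -0.91, adjusted p = 0.0112).

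*Klf15*, which encodes a transcription factor of amino acid and lipid metabolism, stood at 79.9, 85.9 and 107.1 TMM-scaled CPM on NCD and at 31.3, 28.3 and 13.7 on HFD (-1.90, adjusted p = 0.0320, and -1.97, adjusted p = 0.0176). *Noct*, which encodes the rhythmic phosphatase nocturnin, rose in the 5 mice, from 30.4 and 38.2 in the NCD mice to 83.2, 72.3 and 108.5 on HFD (1.37, adjusted p = 0.0148), with 10.3 in NCD replicate 1. *Tspan4* rose from 54.6 and 71.5 to 93.3, 137.8 and 136.1 (0.97, adjusted p = 0.0389), with 26.2 in NCD replicate 1. With all 6 mice neither *Noct* (1.74, adjusted p = 0.0778) nor *Tspan4* (1.27, adjusted p = 0.0948) passed. The output genes thus moved in both directions.

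**Figure D5:**
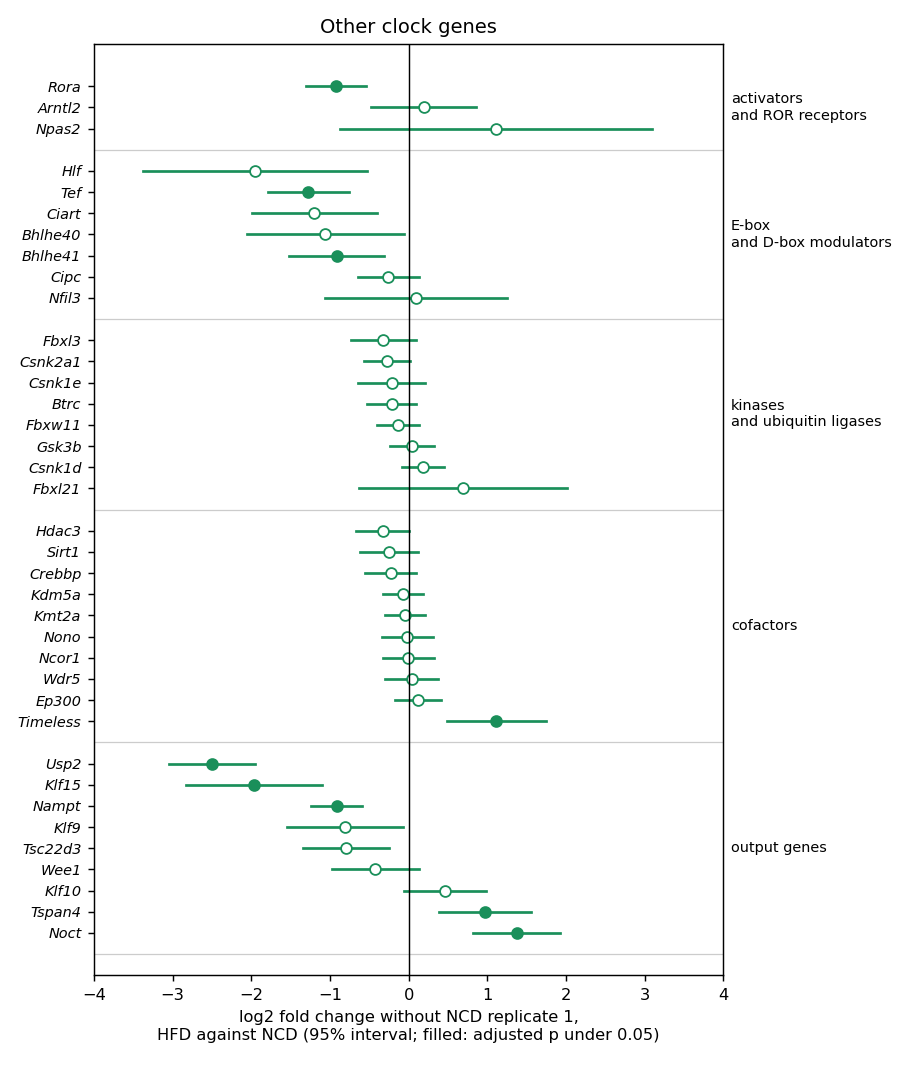
Log2 fold change (HFD against NCD, 5 mice without NCD replicate 1) with its 95% interval for further clock genes in 5 groups by role; filled points passed an adjusted p of 0.05. *Rorb*, with 0 counts on HFD, is left out of the plot; *Usp2* and *Klf15* lie farthest left among the filled points, and *Timeless*, *Tspan4* and *Noct* are the filled points on the right.

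Cell type markers moved with diet beside these results. The 12 adipocyte markers summed to 6078, 22889 and 31518 TMM-scaled CPM on NCD and to 16067, 17001 and 12720 on HFD. Abundant genes weigh most in these sums, and *Cfd* alone stood at 1875, 6340 and 8820 on NCD and at 392, 1052 and 659 on HFD. Of these 12, 0 passed with all 6 mice and 7 fell without NCD replicate 1, and NCD replicate 1 held the lowest sum. The 5 that did not pass in the 5 mice, *Adipoq* among them, had log2 fold changes from -0.74 to 0.78. The 12 macrophage markers summed to 582, 1274 and 1175 on NCD and to 4575, 3207 and 3871 on HFD, and 6 of the 12 rose with all 6 mice and 11 with 5.

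No marker of the adipocyte, macrophage, endothelial, stromal or smooth muscle lists was at 0 counts in any library. The 8 endothelial markers summed to between 350 and 1018 on NCD and between 1101 and 1260 on HFD, with 2 risen in the 5 mice, and the 8 stromal progenitor markers to between 1094 and 1781 and between 1675 and 2363, with 1 risen. The 12 epithelial markers summed to 1897, 214 and 62.1 on NCD and to 59.6, 201 and 78.0 on HFD, with 4 fallen in the 5 mice, and the 8 smooth muscle markers to 6920, 857 and 295 on NCD and to between 267 and 373 on HFD, with 3 fallen. Among the epithelial markers *Cldn7* and *Elf3* had 0 counts in all HFD mice, and *Cldn4* in 2 of them. All 11 seminal vesicle genes fell in the 5 mice. The part of adipocyte, macrophage and seminal vesicle content in the values of the clock genes was not tested.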

How the data were processed

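RNA-seq of gWAT was analysed from 3 NCD-fed and 3 HFD-fed mice. The authors deposited raw read counts per gene, 1 column per library, with no normalization and with genes listed by NCBI identifier. The submitters' processing notes name bcl2fastq 2.20.0, Trimmomatic, HISAT2 2.1.0, StringTie 1.3.4d and DESeq2, and the builds mm10 and GRCm38. The annotation and the strand setting of the counting were not given in the sources used here. Sample labels name a stranded mRNA kit and the study's methods its general name. The labels and the methods also differ on the age at which HFD started. Columns were matched to samples by their labels, and 0 columns had no sample. HFD replicate 3 has the number 4 in its column name.

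RefSeq's annotation of GRCm38.p6 gave symbols for 19742 of the 19790 identifiers, and the coordinates and promoters. Exon lengths for FPKM came from GENCODE vM21 basic transcripts for 17793 genes. The genes with no length took 1.05% of all counts.

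Genes with low counts were removed by filterByExpr (at least 10 counts, 15 in total), TMM factors were computed, and the quasi-likelihood test (glmQLFit and glmQLFTest) of edgeR 4.0.16 in R 4.3.3 was run on the whole table, with Benjamini-Hochberg adjustment and a threshold of 0.05. The fit was repeated with filter and scaling recomputed without NCD replicate 1, which then left 2 NCD and 3 HFD mice. Standard errors were derived from the log2 fold change and its F statistic, and the common biological variation had a coefficient of 0.424. Ratios within a library were taken from the counts as deposited and compared by an exact permutation test. Adding 0.5 to each count was an alternative for the ratios. Within a diet, all pairs of libraries differed beyond sampling noise, with a chi-square between 111 and 3438 times its degrees of freedom, so none was a duplicate. The floor of 3 counts covers counting error only.

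The 10 genes and all lists were chosen with earlier results of these data known. Named are the 10 genes and, of the 39 other clock genes, those past the adjusted p, at most 12, except 1 that is counted but not reported here. The fit was tested on simulated data. The alternatives were no filter on low counts, median-of-ratios, total-count and upper-quartile scaling, removal of the seminal vesicle genes before scaling, DESeq2 1.42.0, the replicate number as a block, and each mouse left out in turn. Python 3.11.15, pandas 2.3.3 and matplotlib 3.10.9 were used for tables and figures.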

Additional observations from a re-analysis of the deposited data

How the results depend on the processing

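With all 6 mice 1139 genes passed the threshold. DESeq2 gave 3904 (2153 higher, against 850 of the 1139), and leaving out 1 mouse gave between 2 and 3234, the highest without NCD replicate 1 and 2 to 7 without any other mouse. Clock genes past the threshold, 1 in the 6 mice, were 0 with no filter on low counts, 0 on total counts, 5 with DESeq2 and 0 to 5 with 1 mouse left out. Total counts turned *Clock* (0.34), *Cry1* (0.11) and *Nr1d1* (0.22) positive, each below that scaling's median of all genes (0.45). With 1 mouse left out, *Nr1d1* ran from -0.42 (NCD replicate 1) to 0.085 (NCD replicate 2), and *Arntl* from -0.37 to 0.48, with values of -0.08, -0.24 and -0.37 for NCD replicate 2, NCD replicate 3 and HFD replicate 1. The log2 ratio of *Arntl* to *Nr1d1* differed by -0.13, -0.25 and -0.16 without NCD replicate 2, NCD replicate 3 and HFD replicate 1 (range -0.25 to 0.86); those to *Dbp* and *Per3* stayed positive (0.70 to 1.84 and 0.70 to 1.85).

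Without NCD replicate 1, 3234 genes passed, and 5 clock genes. These alternatives were chosen after seeing the data. DESeq2 called 5393 genes and 6 clock genes, total counts left 2 clock genes (*Per3* and *Cry2*) and turned *Clock* to 0.054, and leaving out 1 further mouse gave 207 to 3865 genes and 0 to 4 clock genes. Of 240 values of single genes and alternatives, 194 kept direction and side of the threshold, 10 gained the threshold, 28 lost it and 8 changed sign. Only genes that passed in the main fit could lose the threshold. With 6 mice, *Per1* kept its call in 5 of 13 alternatives. In the 5 mice, the calls kept out of 11 alternatives were 7 for *Per1*, 8 for *Per3*, 8 for *Cry2*, 6 for *Nr1d2* and 6 for *Dbp*. The cause of these changes was not tested. The alternatives with fewer mice also have fewer samples.

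The replicate number as a block left 12 genes and 0 clock genes past the threshold. Deviations of same-numbered mice correlated at -0.056, -0.046 and 0.010, so no pairing by number was seen. The NCD deviations also carry differences in seminal vesicle RNA that the HFD libraries lack, so this check cannot exclude a pairing. No block fit was made for the 5 mice.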

Other observations

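Immediate early genes and glucocorticoid target genes were read beside the clock genes. Of the 11 listed, *Fkbp5* fell and *Fos* rose with all 6 mice, and both are named because they were the only ones that passed, after their values had been seen. Among all genes 1.9% fell and 5.58% rose in that comparison. *Fkbp5*, a chaperone gene and glucocorticoid target, stood at 168.2, 115.1 and 124.0 TMM-scaled CPM on NCD and at 58.8, 54.3 and 78.6 on HFD (log2 fold change -1.09, adjusted p = 0.0453). *Fos*, an immediate early gene, stood at 10.2, 19.1 and 33.7 on NCD and at 100.3, 118.7 and 131.0 on HFD (2.47, adjusted p = 0.0324). Without NCD replicate 1, 3 of the 11 fell (*Fkbp5*, *Zbtb16* and *Sgk1*) and 4 rose (*Fos*, *Junb*, *Atf3* and *Dusp1*), against 10.1% and 10.7% of all genes. *Sgk1* stood at 1378, 157 and 75.0 on NCD, in the order of the seminal vesicle shares, and at 53.0, 50.6 and 50.4 on HFD. The part of seminal vesicle RNA in its fall was not tested.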
